A study of Mus musculus with 16 samples.

Results

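The nuclei described here are nuclei of the mouse medial PFC with counts of Slc17a7 and of Rorb or Il1rapl2, and they are called Rorb/Il1rapl2 nuclei below. A nucleus was taken when it had at least 1 unique molecular identifier (UMI) of Slc17a7, 0 UMIs of Gad1 and Gad2 together, at least 3 of Rorb and Il1rapl2 together, at most 1 of Cux2, Rasgrf2 and Otof together, and 0 of Foxp2, Fezf2 and Tshz2 together. The rule was written for layer 5 (L5) intratelencephalic (IT) neurons. It found 1433 of the 114512 nuclei of the table (1.25%), which is 2.63% of the 54463 nuclei with Slc17a7 and neither Gad1 nor Gad2. Because these 11 genes chose the nuclei, their levels are a description and were not tested.

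The 16 libraries came from 16 male mice, 1 mouse each, with 4 mice in each of 4 groups at 22 weeks of age. WT mice were of the B6;129 background, and 3xTg-AD mice carried, among other changes, human APP with the Swedish mutation and human tau with the P301L mutation as transgenes driven by a Thy1 cassette. Alcohol mice of both genotypes had received ethanol and pyrazole, which blocks alcohol dehydrogenase, and repeated cycles of intermittent alcohol vapor. Controls of both genotypes had received pyrazole in saline and breathed air in the same kind of chamber, so that all 4 groups had pyrazole, and mice of the study then swam in the Morris water maze. Frozen prelimbic and infralimbic cortex was processed as nuclei on the 10x Genomics platform. None of the 19999 genes listed is a human transgene, so the genotype could not be read from them.

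IT neurons send their axons to other cortical areas of both hemispheres and to the striatum, whereas the extratelencephalic neurons of L5 also reach the brainstem and spinal cord. Rorb encodes an orphan nuclear receptor that is best known from layer 4 of sensory cortex and that also marks IT neurons of upper L5. Il1rapl2 encodes a synaptic adhesion protein of the interleukin-1 receptor family, and Slc17a7 encodes the vesicular glutamate transporter VGLUT1.

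Rorb, rather than Il1rapl2, brought most nuclei in. Rorb without Il1rapl2 was counted in 1200 nuclei (83.7%), both genes in 217 (15.1%) and Il1rapl2 alone in 16. A single UMI of Slc17a7 was counted in 535 nuclei (37.3%). The median nucleus held 2870 UMIs and 1586 detected genes, against 2021 UMIs in the 53030 other nuclei with Slc17a7 and neither Gad1 nor Gad2.

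The number of Rorb/Il1rapl2 nuclei differed widely between mice of 1 group. WT controls gave 189, 86, 42 and 70 nuclei in mice 26, 27, 28 and 36. WT alcohol mice gave 59, 25, 184 and 86 in mice 6, 7, 17 and 18. 3xTg-AD controls gave 108, 37, 92 and 53 in mice 12, 13, 14 and 21, and 3xTg-AD alcohol mice gave 87, 91, 149 and 75 in mice 4, 31, 33 and 34. The fewest nuclei and the second most thus came from the same group. Summed UMIs per mouse ranged from 50140 in WT alcohol mouse 7 to 723817 in WT alcohol mouse 17, with 4426049 in all, and whole libraries held 4955 to 9096 nuclei.

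As a share of all nuclei of the mouse, the population made up 1.53% ± 0.910 in WT controls, 1.16% ± 1.0 in WT alcohol mice, 1.09% ± 0.594 in 3xTg-AD controls and 1.34% ± 0.30 in 3xTg-AD alcohol mice (SD, n = 4 mice each). The single shares ran from 0.383% to 2.70%, and all 4 groups overlapped. They were not adjusted for depth. WT alcohol mice 7 and 17, with the lowest and the second highest share, had medians of 1647 and 3886.5 UMIs per Rorb/Il1rapl2 nucleus. In none of the 5 contrasts did the share differ beyond the spread between mice (exact permutation tests, two-sided, p between 0.457 and 0.8, adjusted p = 0.8 in each). The difference between 3xTg-AD alcohol mice and WT controls was -0.187 percentage points and turned to 0.204 without WT control mouse 26. With 4 mice against 4, an exact permutation test cannot go below p = 0.0286, so that a single contrast could not pass 0.05 once adjusted over 5.

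**Figure D1:**
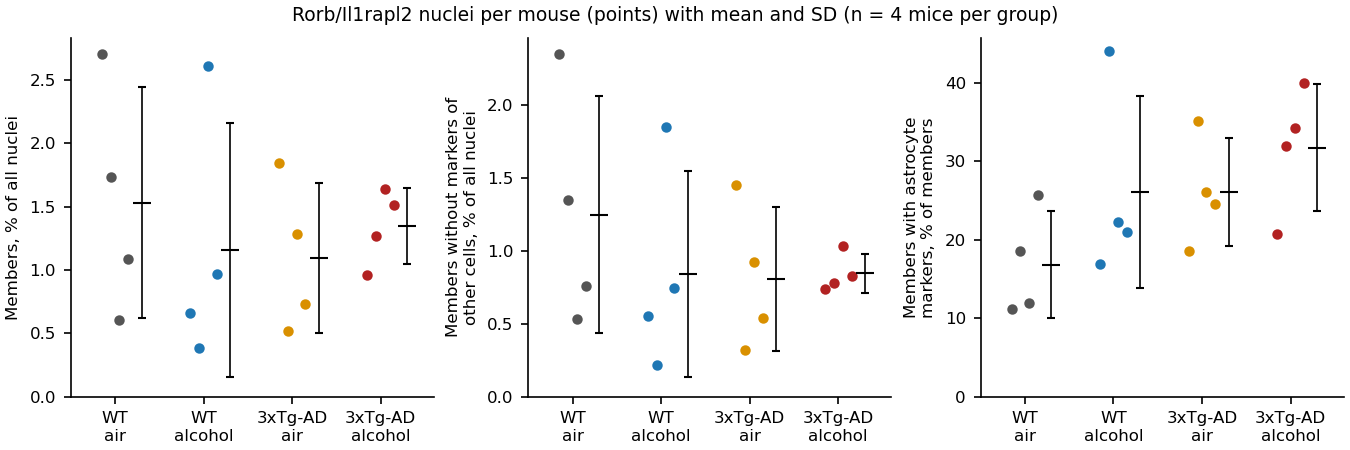
The panels plot, per mouse, the Rorb/Il1rapl2 nuclei as a percentage of all nuclei of the mouse, the same for those without markers of other cells, and the percentage of them with astrocyte markers (points), with the mean and SD of the 4 mice of each group (bars); air marks the control groups. The shares of nuclei overlap between all groups, from 0.383% to 2.70%, and the percentage with astrocyte markers runs from 11.1% in a WT control to 44.0% in a WT mouse exposed to alcohol.

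In 3 libraries the ribosomal RNA-like transcript Gm42418 took 0.953% to 1.54% of the UMIs of these nuclei (WT control mice 26 and 27 and 3xTg-AD control mouse 12), against 0.123% to 0.289% in the other 13, and counts are given below also without these 3 mice. Over all libraries, 1694 barcodes occurred in at least 2 libraries. Of the Rorb/Il1rapl2 nuclei, 35 had a barcode found in another library, and 1 barcode belonged to such a nucleus in 2 libraries.

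Several L5 IT markers that the rule did not use were higher than in superficial neurons in most mice, as were some markers of L6 IT and corticothalamic neurons. Superficial neurons were 1144 nuclei with the same conditions on Slc17a7, Gad1, Gad2, Foxp2, Fezf2 and Tshz2, at least 3 UMIs of Cux2, Rasgrf2 and Otof together and at most 1 of Rorb and Il1rapl2 together. Levels in this description are counts per 1e6 UMIs (CPM) pooled over the 16 mice. Of the Rorb/Il1rapl2 nuclei, those with markers of other cells were first set aside, as described in the next paragraph. The comparison nuclei were not filtered in this way. Counts of mice are over the filtered Rorb/Il1rapl2 nuclei unless all of them are named. Etv1, a transcription factor of L5 neurons, was at 130.2 CPM against 34.7 in superficial neurons and was higher in 16 of 16 mice over all Rorb/Il1rapl2 nuclei. Deptor, an inhibitor of mTOR signaling and a marker of L5 IT neurons, was at 42.2 against 10.7 CPM (higher in 15 of 16 mice). Tcap was at 41.4 against 9.19 CPM and the potassium channel gene Kcnh5 at 45.4 against 16.6 (each higher in 15 of 16 mice). The other Slc17a7 nuclei lay nearer for some of these, with Etv1 at 99.95 CPM, Deptor at 25.5, Tcap at 10.8 and Kcnh5 at 16.0. Of the L6 IT markers, Zfp804b was at 37.9 against 7.15 CPM (higher in 15 of 16 mice) and Galnt14 at 17.2 against 5.10 (higher in 14 of 16 mice). The somatostatin receptor gene Sstr2 was at 13.7 against 3.32 (higher in 13 of 16 mice), while Cdh13 was at 26.8 against 65.6, so these markers do not single out L5 IT neurons. The IT class genes were mixed. Slc30a3, the vesicular zinc transporter, was at 274 CPM in Rorb/Il1rapl2 nuclei and 245 in superficial neurons, and Lmo4 at 1096 and 872. Nectin3, an adhesion protein, was at 34.7 against 109.5 CPM (higher in 0 of 16 mice) and the transcription factor Cux1 at 72.5 against 110.0 (higher in 1 of 16 mice). Of the corticothalamic markers, Garnl3 was at 108.9 against 34.5 CPM in superficial neurons (higher in 16 of 16 mice). Rprm was at 22.4 against 12.5 (higher in 14 of 16 mice) and Hs3st4 at 18.1 against 11.2 (higher in 12 of 16 mice). In the other Slc17a7 nuclei Garnl3, Rprm and Hs3st4 were at 94.9, 39.9 and 34.9 CPM. Tle4 was at 60.6 against 51.8 CPM, and was higher in 9 of 16 mice over these nuclei and in 16 of 16 over all Rorb/Il1rapl2 nuclei. In 105 nuclei with at least 3 UMIs of Foxp2, these genes were at 392 (Garnl3), 167 (Rprm), 126 (Hs3st4) and 755 CPM (Tle4). Of the 12 L5 IT markers outside the rule, Scnn1a, Endou, Batf3 and Hsd11b1 were low, at 0.226, 0.452, 2.26 and 5.65 CPM over all Rorb/Il1rapl2 nuclei. Batf3 was higher in superficial neurons, at 10.98 CPM, and exceeded them in 1 of 16 mice.

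Against the label, markers of astrocytes were frequent. At least 2 UMIs over Aqp4, Gja1, Slc1a3, Plpp3, Ntsr2, Fgfr3 and Aldh1l1, genes of astrocyte transport, coupling and signaling, were counted in 338 Rorb/Il1rapl2 nuclei (23.6%), against 7.87% of superficial neurons, 2.86% of the Foxp2 neurons and 10.0% of the other Slc17a7 nuclei. The median depth was 2870 UMIs in Rorb/Il1rapl2 nuclei, 3218 in superficial neurons, 3460 in Foxp2 neurons and 2021 in the other Slc17a7 nuclei. With each nucleus thinned to 1000 UMIs, which left out 47, 15, 1 and 11348 shallower nuclei, the percentages were 15.7%, 2.39%, 0% and 5.57%. None of these markers was counted in 843 nuclei, and at least 12 UMIs were counted in 56. The 338 nuclei had a median of 1792 UMIs, and 1.63 UMIs of Slc17a7 on average against 2.68 in nuclei without other markers. In them Aqp4 was at 419.5 CPM, Gja1 at 558, Slc1a3 at 973 and Apoe at 6816, against 3.49, 8.74, 16.9 and 330.2 CPM in nuclei without other markers. Aqp4, Gja1 and Slc1a3 were used to split these nuclei, which fixed the direction of their difference, and Apoe was not used. Rorb itself was not particular to neurons in this table: of 6608 nuclei with at least 4 UMIs of the astrocyte markers, 13.6% had at least 3 UMIs of Rorb, and 43.2% had Slc17a7. In nuclei with at least 4 such UMIs and no Slc17a7, Gad1 or Gad2, Rorb was at 846 CPM and was counted in 62.1%. Apoe was at 6681 CPM in those nuclei. At least 3 UMIs of oligodendrocyte markers were counted in 69 Rorb/Il1rapl2 nuclei (4.82%), of microglial markers in 4 and of vessel markers in 0, which allows a share of up to 0.209%. Without any of these, 1047 nuclei remained, and results are given below over all 1433 nuclei and over these 1047. Whether the astrocyte counts came from doublets, from free RNA or from astrocytes with Rorb of their own was not tested.

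The share of Rorb/Il1rapl2 nuclei with astrocyte markers had group means from 16.8% to 31.7%, with groups that overlapped. It was 11.1%, 18.6%, 11.9% and 25.7% in the WT controls, with a mean of 16.8% ± 6.81 (SD, n = 4). It was 16.9%, 44.0%, 22.3% and 20.9% in WT alcohol mice (26% ± 12.2), 18.5%, 35.1%, 26.1% and 24.5% in 3xTg-AD controls (26.1% ± 6.87) and 20.7%, 31.9%, 34.2% and 40.0% in 3xTg-AD alcohol mice (31.7% ± 8.09). The highest WT control lay above the lowest 3xTg-AD mouse exposed to alcohol, so these groups overlapped. With each nucleus thinned to 1000 UMIs and the mice of a group pooled, the percentages were 9.81%, 16.2%, 13.5% and 22.6% in the same order of groups, with 10, 14, 15 and 8 nuclei too shallow. The difference between WT controls and 3xTg-AD alcohol mice, 14.9 percentage points, did not pass an exact permutation test without thinning (two-sided, p = 0.0571, adjusted p = 0.286 over 5 contrasts). Adjusted over 5 contrasts, a single contrast could not pass 0.05 with 4 mice against 4. With at least 4 astrocyte marker UMIs asked for, the means were 13.5% in WT controls, 20.4% in WT alcohol mice, 13.4% in 3xTg-AD controls and 23.9% in 3xTg-AD alcohol mice. Summed over 12 astrocyte markers, none of which was at 0, the level ran from 2313 to 5752 CPM in WT controls, 2543 to 7798 in WT alcohol mice, 1749 to 5638 in 3xTg-AD controls and 3768 to 7495 in 3xTg-AD alcohol mice. Over the 1047 nuclei it ran from 788 to 1715 CPM in all 16 mice, a range partly set by the filter, which used some of these markers.

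The genes with the largest median fold over superficial neurons (over 16 mice, log2 of CPM + 10, genes of at least 50 CPM) depended on those nuclei. Over all 1433 nuclei the list opened with Gja1, the astrocyte gap junction protein, at a log2 fold of 2.66, and held Aqp4, Gfap, Bcan, Ntsr2 and Plpp3 beside Kcnk2, Rmst and Htr1f. Rmst was at 302 CPM in nuclei with astrocyte markers and no Slc17a7, at 358 in the Rorb/Il1rapl2 nuclei with astrocyte markers and at 255 in the 1047 without markers of other cells. Over the 1047 nuclei without markers of other cells it opened with Kcnk2, a mechanosensitive potassium channel, at 2.28, followed by Tmem91 at 2.21, Htr1f, the serotonin 1F receptor, at 2.13, the noncoding RNA Rmst at 2.11 and Ntng1, a netrin-G adhesion protein, at 1.91. Scube1, Pamr1, Brinp3, Zmat4, Cnih3, Etv1, Hrh3, Wls and Xirp2 followed, from 1.89 down to 1.58. These folds describe nuclei chosen by expression and carry no test. In the 4 mice with at least 10 Foxp2 neurons, Rmst, Ptprk, Rskr and Ntng1 led the 1047 nuclei against those, with log2 folds of 4.92, 3.94, 3.89 and 3.66.

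Nuclei just outside and just inside the threshold of 3 UMIs had similar levels of several genes. Among nuclei that met every other condition and lacked markers of other cells, Etv1 was at 125.7 CPM with 2 UMIs of Rorb and Il1rapl2 and at 134.7 CPM with 3, and Kcnh5 at 46.7 and 47.5 CPM. Kcnk2 was at 50.8 CPM at 0 UMIs, 184 at 2, 248 at 3, 203 at 4 and 332 at 5 or more. Bcl11b, a transcription factor of extratelencephalic neurons, went the other way, from 90.9 CPM at 0 UMIs to 36.7 at 2 and 27.4 at 3. Counting all nuclei, 1974 stood at 2 UMIs, just outside, and 809 at 3, just inside. These values are given with no test.

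**Figure D2:**
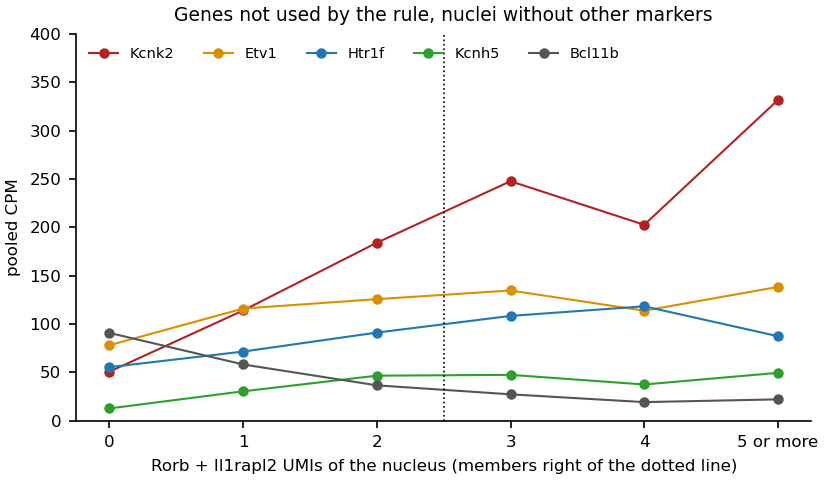
Pooled CPM (vertical axis) of 5 genes that the rule did not use, in nuclei without markers of other cells, by their number of Rorb and Il1rapl2 UMIs (horizontal axis; the dotted line marks the threshold of 3). Etv1 is at 125.7 CPM just outside and 134.7 just inside, Kcnk2 goes from 50.8 at 0 UMIs to 332 at 5 or more, and Bcl11b falls from 90.9 CPM at 0 UMIs to 27.4 at 3.

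Il1rapl2 split the population further. Of the 1047 nuclei, 203 had Il1rapl2 and 844 did not, with medians of 3659 and 2919.5 UMIs. With Il1rapl2, Rorb was lower (601 against 1208 CPM), which the rule itself favours since it takes the sum of both genes. The L5 IT markers went both ways: Etv1 (196 against 109.9 CPM) and Deptor (74.6 against 32.3) were higher with Il1rapl2, Kcnh5 (22.4 against 52.5) and Whrn (9.94 against 20.2) were lower, and Hs6st3 was at 13.7 against 13.3. Of the leading genes, Tmem91 (224 against 85.2) was higher and Kcnk2 (165 against 282) lower. The difference was not tested.

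UMIs were summed over the Rorb/Il1rapl2 nuclei of each mouse, and 6138 genes with enough counts were compared between groups by edgeR's quasi-likelihood test, with adjusted p-values (Benjamini-Hochberg over these genes) and a call at 0.05. In 3xTg-AD alcohol mice, 44 genes were called against WT controls (0.717% of the genes tested), 16 higher (0.261%) and 28 lower (0.456%). Against WT alcohol mice, 14 genes were called (0.228%), 5 higher (0.0815%) and 9 lower (0.147%), and against 3xTg-AD controls 1 gene was lower (0.0163%). 3xTg-AD controls differed from WT controls in 2 genes (0.0326%), 1 higher (0.0163%) and 1 lower (0.0163%), and WT alcohol mice in 2, both lower (0.0326%). No gene was called for the interaction of genotype and alcohol (0.0%) by edgeR, where 216 (3.52%) had an unadjusted p under 0.05, and none by DESeq2, where 221 had. In the contrasts with WT controls, 722 genes (11.8%) had an unadjusted p under 0.05 in 3xTg-AD alcohol mice, 338 (5.51%) in 3xTg-AD controls and 436 (7.1%) in WT alcohol mice. In 3xTg-AD alcohol mice there were 392 (6.39%) against 3xTg-AD controls and 373 (6.08%) against WT alcohol mice. These contrasts share groups, so their results are not independent of each other. Between 3xTg-AD alcohol mice and WT controls, genotype and alcohol differ together, so their parts cannot be told apart in that contrast. For some genes below, levels are given for those groups only.

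The count in the first contrast rested on single mice. It was 17 without WT control mouse 26, 22 without WT control mouse 27, 15 and 23 when 3xTg-AD alcohol mouse 33 or 34 was left out, and 73 without 3xTg-AD control mouse 12. Without the 3 mice with much Gm42418 it was 15, of which 10 were among the 44, and these included Gpm6b, Tmsb4x, Nudcd3, Rpl29, Gas5, Galnt1, Dynlt1f, Xirp2 and Slc38a6. All other calls named below in this contrast were lost without these 3 mice, also where this is not repeated with the gene. Of the calls named below in the other contrasts, those of Galnt1 in 3xTg-AD controls, Dynlt1f and Nefm in WT alcohol mice and Timp4 between the alcohol groups were lost without these 3 mice. Over the 1047 nuclei without markers of other cells, 39 of 5045 genes were called (0.773%), and 32 of them were among the 44. In the other contrasts 1 gene was called over these nuclei in 3xTg-AD controls (0.0198%), 2 in WT alcohol mice (0.0396%) and 13 between the alcohol groups (0.258%), and none within 3xTg-AD mice or for the interaction (0.0%). With at least 5 UMIs of Rorb and Il1rapl2, which left 10 mice with 10 or more nuclei, 2 genes were called and 1 was among the 44. In the contrast with WT alcohol mice the count was 6 without WT alcohol mouse 17, 9, 6 and 5 without 3xTg-AD mice 31, 33 and 34, 22 without the 3 mice with much Gm42418 and 0 with at least 5 UMIs.

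Levels from here on are CPM scaled by TMM, in the order of mice given above, and fold changes are log2 with their standard errors (SE). Before this scaling, 1 UMI was 11.5 CPM in WT control mouse 28, 12.4 in 3xTg-AD control mouse 13 and 19.9 in WT alcohol mouse 7. Levels near these values in those mice thus rest on about 1 UMI. Gpm6b, Tmsb4x and Frmpd4 rose in 3xTg-AD alcohol mice against WT controls, and their changes in 3xTg-AD controls were also above 0. Within 3xTg-AD mice, the change with alcohol was 0.27 for Gpm6b, -0.026 for Tmsb4x and -0.033 for Frmpd4. None of these changes within 3xTg-AD mice was called (edgeR, adjusted p = 0.828, 0.999 and 0.999). Gpm6b, which encodes a proteolipid of the neuronal and glial membrane, was at 783, 556, 642 and 837 CPM in WT controls and 794, 822, 661 and 640.0 in WT alcohol mice, and at 1193, 1192, 1390.0 and 1033 in 3xTg-AD controls and 1397, 1322, 1753 and 1353 in 3xTg-AD alcohol mice. All 8 3xTg-AD mice lay above all 8 WT mice. It rose by 1.04 ± 0.16 against WT controls (adjusted p = 7.56e-05) and by 1.03 ± 0.17 against WT alcohol mice (adjusted p = 0.000476). Gpm6b was higher in nuclei with astrocyte markers (1884 CPM pooled) than in the 1047 without other markers (698), and over the latter its change was 0.68 and 0.70 (adjusted p = 0.0201 and 0.0215).

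Tmsb4x encodes thymosin beta 4, which binds actin monomers. It was at 549, 679.8, 1247 and 1000.4 CPM in WT controls, 1161, 1622, 1103 and 1382 in WT alcohol mice, 1196, 2673, 2262 and 2376 in 3xTg-AD controls and 2277, 1582, 2434 and 1972 in 3xTg-AD alcohol mice. 3xTg-AD control mouse 12 and 3xTg-AD alcohol mouse 31 lay within the range of the WT mice, and the other 6 3xTg-AD mice above it. Against WT controls it rose by 1.29 ± 0.23 in 3xTg-AD alcohol mice (adjusted p = 0.00705; 1.23 and 0.0214 over the 1047 nuclei) and by 1.32 ± 0.24 in 3xTg-AD controls (adjusted p = 0.0222), where the groups overlapped. The call of Tmsb4x in 3xTg-AD controls was lost without WT control mouse 27 or 3xTg-AD control mice 13, 14 or 21 (1.20 to 1.28, adjusted p from 0.0924 to 0.222) and over the 1047 nuclei (1.42, adjusted p = 0.0503). Tmsb4x has many near-identical copies in the genome, so its counts are uncertain.

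Frmpd4, a scaffold of dendritic spines that binds PSD-95, was at 78.8, 77, 48.4 and 61.7 CPM in WT controls and 52.5, 42.1, 60.1 and 75 in WT alcohol mice, and at 156, 170.3, 119.5 and 127 in 3xTg-AD controls and 142, 129, 131 and 155 in 3xTg-AD alcohol mice. Again all 3xTg-AD mice lay above all WT mice. It rose by 0.96 ± 0.23 against WT controls (adjusted p = 0.0243) and by 1.16 ± 0.24 against WT alcohol mice (adjusted p = 0.0148). The call of Frmpd4 in 3xTg-AD alcohol mice against WT controls was lost without WT control mice 26, 27, 28 or 36 or 3xTg-AD alcohol mice 4, 33 or 34 (0.90 to 1.06, adjusted p from 0.0549 to 0.0964), with DESeq2 (0.97, adjusted p = 0.0561) and with no filter on low counts (0.95, adjusted p = 0.0594). The call of Frmpd4 against WT alcohol mice was lost without WT alcohol mouse 17 or 3xTg-AD alcohol mouse 34 (1.11 to 1.14, adjusted p from 0.0559 to 0.196). Its change in 3xTg-AD controls against WT controls was 0.99, with an adjusted p of 0.255, and that of Gpm6b was 0.76, with 0.0521. Gpm6b, Tmsb4x and Frmpd4 lie within 2.34 Mb of chromosome X (mm10, 166238911 to 168577231), a fact noticed after their values were seen. The table has 11 genes in that interval, of which 5 were tested, and the other two, Trappc2 and Rab9, were at 0.91 and 0.92 in the same contrast and did not pass (adjusted p = 0.195 and 0.409).

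**Figure D3:**
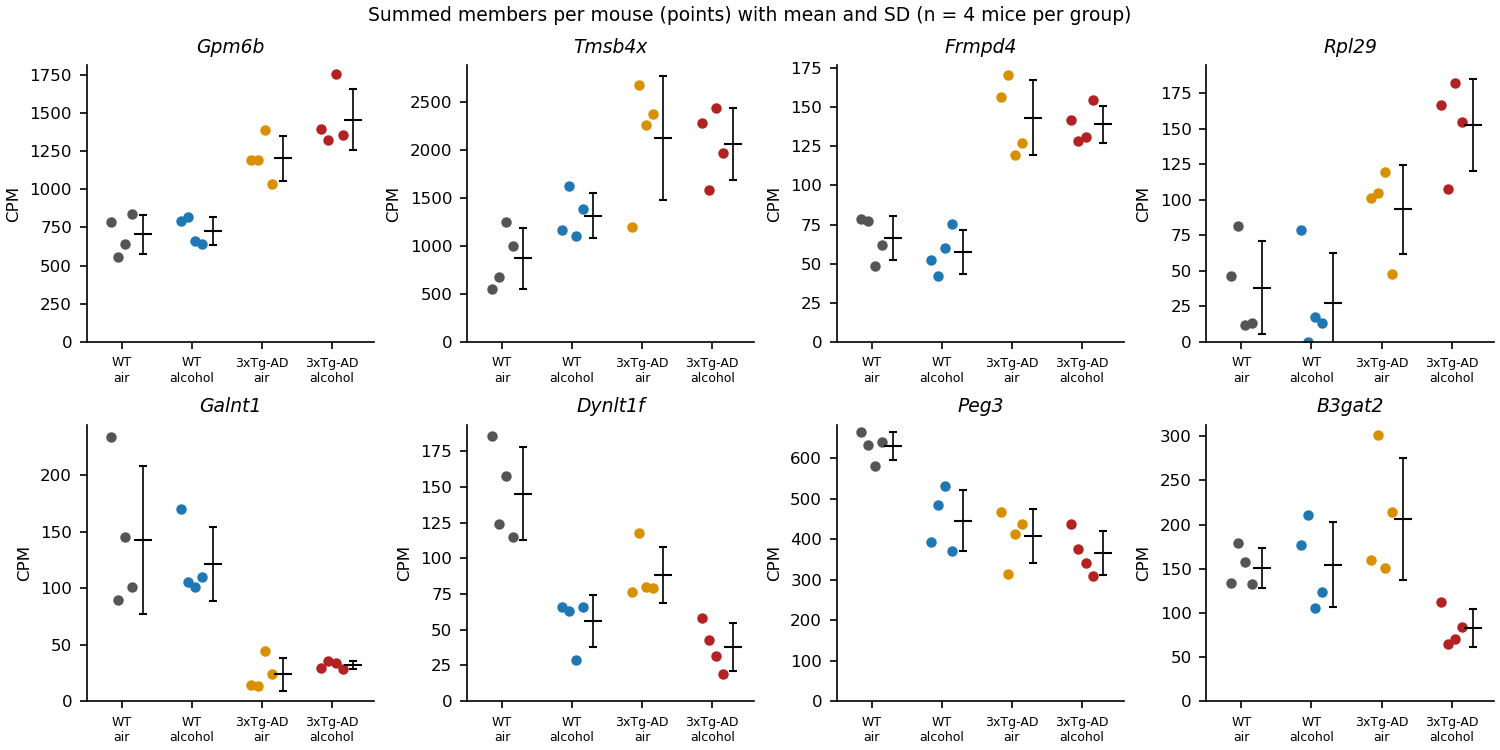
TMM-scaled CPM (vertical axes) of Gpm6b, Tmsb4x, Frmpd4, Rpl29, Galnt1, Dynlt1f, Peg3 and B3gat2, summed over the Rorb/Il1rapl2 nuclei of each mouse (points), with the mean and SD of the 4 mice per group (bars, cut at 0 for Rpl29 in WT alcohol mice); air marks the control groups. Gpm6b and Frmpd4 are higher and Galnt1 is lower in all 8 3xTg-AD mice than in all 8 WT mice.

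Gabarapl2 rose and Atg4c fell, both genes of autophagy. Gabarapl2, an ATG8-family protein that is attached to autophagosomes, was at 51, 85.5, 48.4 and 97 CPM in WT controls and 163, 154, 153 and 164 in 3xTg-AD alcohol mice, with the mice of the other groups between 93.4 and 185.9. It rose by 1.14 ± 0.24 (adjusted p = 0.0102). The call was lost without WT control mouse 26 (0.92, adjusted p = 0.189) and without the 3 mice with much Gm42418. Atg4c, a protease that trims ATG8 proteins, was at 92.7, 59.9, 72.7 and 48.5 CPM in WT controls, 39.4, 84.3, 57 and 53 in WT alcohol mice, 38.2, 39.3, 17.7 and 23.8 in 3xTg-AD controls and 16.7, 17.9, 9.7 and 18.7 in 3xTg-AD alcohol mice. The mice of both 3xTg-AD groups lay below all WT mice, with 39.3 CPM in the highest 3xTg-AD control and 39.4 in the lowest WT mouse. In 3xTg-AD alcohol mice Atg4c fell against WT controls (-2.21 ± 0.37, adjusted p = 0.000242) and against WT alcohol mice (-1.83 ± 0.39, adjusted p = 0.0148). It was not called in 3xTg-AD controls against WT controls. The call of Atg4c against WT alcohol mice was lost without WT alcohol mouse 17 or 3xTg-AD alcohol mouse 33 (-1.76 to -1.59, adjusted p from 0.188 to 0.196) and with DESeq2 (-1.85, adjusted p = 0.0694). Without the 3 mice with much Gm42418 the call against WT controls was lost as well (-1.85, adjusted p = 0.185).

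Rpl29, Gas5 and Cstf3 rose. Rpl29, a protein of the large ribosomal subunit, was at 46.3, 81.2, 12.1 and 13.2 CPM in WT controls, 78.7, 0, 17.4 and 13.2 in WT alcohol mice, 101, 105, 119.5 and 47.7 in 3xTg-AD controls and 167, 107, 182 and 155 in 3xTg-AD alcohol mice. The last group lay above both WT groups. It rose by 1.81 ± 0.38 against WT controls (adjusted p = 0.0191) and by 2.56 ± 0.43 against WT alcohol mice (adjusted p = 0.00471). The call of Rpl29 in 3xTg-AD alcohol mice against WT controls was lost without WT control mouse 26 or 3xTg-AD alcohol mice 33 or 34 (1.69 to 1.87, adjusted p from 0.0565 to 0.155) and with DESeq2 (1.90, adjusted p = 0.0959). The call of Rpl29 against WT alcohol mice was lost without WT alcohol mouse 17 (2.10, adjusted p = 0.117). Rpl29 has pseudogene copies, and its 317 UMIs in all are uncertain for that reason. Gas5, a host of small nucleolar RNAs, rose by 0.88 ± 0.22 (adjusted p = 0.0243) and Cstf3, a factor of mRNA 3′ end cleavage, by 0.85 ± 0.20 (adjusted p = 0.0231). The call of Gas5 was lost without WT control mice 28 or 36 or 3xTg-AD alcohol mice 4, 33 or 34 (0.75 to 0.90, adjusted p from 0.0553 to 0.134). The call of Cstf3 was lost without WT control mice 26 or 27 or 3xTg-AD alcohol mice 4 or 33 (0.74 to 0.91, adjusted p from 0.0539 to 0.149).

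Of the imprinted, paternally expressed genes named here, Ndn rose and Peg3 fell. Ndn, which encodes necdin of neuronal differentiation, was at 30.1, 25.7, 84.8 and 39.7 CPM in WT controls and 87.6, 92.9, 104 and 89 in 3xTg-AD alcohol mice and rose by 1.35 ± 0.32 (adjusted p = 0.0207). Peg3, a zinc finger protein, was at 665, 633, 581 and 639 CPM in WT controls, 394, 485, 530.1 and 371 in WT alcohol mice, 466, 314, 412 and 437 in 3xTg-AD controls and 438, 375, 342 and 309 in 3xTg-AD alcohol mice. All 4 WT controls lay above the other 12 mice. Peg3 fell in 3xTg-AD alcohol mice (-0.79 ± 0.17, adjusted p = 0.0117; -0.79 over the 1047 nuclei). The call of Ndn was lost without WT control mice 26 or 27 or 3xTg-AD alcohol mouse 33 (1.18 to 1.28, adjusted p from 0.0944 to 0.216). The call of Peg3 was lost without WT control mouse 26 or 3xTg-AD alcohol mice 33 or 34 (-0.76 to -0.72, adjusted p from 0.0616 to 0.072).

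Galnt1, an enzyme that begins mucin-type O-glycosylation, was lower in 3xTg-AD mice. It was at 234, 89.8, 145 and 101 CPM in WT controls and 171, 105, 101 and 110.3 in WT alcohol mice, and at 13.9, 13.1, 44.3 and 23.8 in 3xTg-AD controls and 29.2, 35.7, 33.9 and 28.1 in 3xTg-AD alcohol mice. No 3xTg-AD mouse reached the lowest WT mouse. It fell against WT controls in 3xTg-AD alcohol mice (-2.21 ± 0.30, adjusted p = 6.11e-06) and in 3xTg-AD controls (-2.55 ± 0.36, adjusted p = 1.3e-05), and against WT alcohol mice (-1.86 ± 0.32, adjusted p = 0.000842). Over the 1047 nuclei these values were -2.75, -3.20 and -2.43. The first and the last of these calls were kept in each alternative that gave a value, and with at least 5 UMIs of Rorb and Il1rapl2 Galnt1 had too few counts for a test. The call in 3xTg-AD controls was lost without the 3 mice with much Gm42418 (-1.82, adjusted p = 0.244).

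Dynlt1f, a dynein light chain, was at 185, 124, 157 and 115 CPM in WT controls, 65.6, 63.2, 28.5 and 66.2 in WT alcohol mice, 76.5, 118, 79.7 and 79.5 in 3xTg-AD controls and 58.4, 42.9, 31.5 and 18.7 in 3xTg-AD alcohol mice. Both alcohol groups lay below all WT controls. It fell against WT controls in 3xTg-AD alcohol mice (-1.95 ± 0.29, adjusted p = 1.54e-05) and in WT alcohol mice (-1.65 ± 0.29, adjusted p = 0.00381), and its change in 3xTg-AD alcohol mice against 3xTg-AD controls was -1.14 with an adjusted p of 0.322. The call of Dynlt1f in WT alcohol mice was lost without WT control mouse 26 or WT alcohol mouse 17 (-1.43 to -1.16, adjusted p from 0.286 to 0.437) and with DESeq2 (-1.59, adjusted p = 0.0853). Dynlt1f has near-identical copies, of which Dynlt1a was tested and was at -0.13 in the first contrast (adjusted p = 0.899), so its counts are uncertain.

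Nefm, the medium neurofilament subunit, was lower in every other group than in WT controls and was called in both alcohol groups. The levels of 3xTg-AD controls and 3xTg-AD alcohol mice overlapped, and Nefm was not called in 3xTg-AD controls. It was at 167, 64.1, 84.8 and 106 CPM in WT controls, 45.9, 21.1, 42.7 and 30.9 in WT alcohol mice, 55.6, 39.3, 57.5 and 39.7 in 3xTg-AD controls and 62.6, 42.9, 46.1 and 46.8 in 3xTg-AD alcohol mice. All 4 WT controls lay above the other 12 mice. It fell in WT alcohol mice (-1.53 ± 0.30, adjusted p = 0.0145) and in 3xTg-AD alcohol mice (-1.21 ± 0.28, adjusted p = 0.0181). The call of Nefm in WT alcohol mice was lost without WT control mouse 26 or WT alcohol mice 17 or 18 (-1.68 to -1.11, adjusted p from 0.164 to 0.761) and with DESeq2 (-1.53, adjusted p = 0.549). The call of Nefm in 3xTg-AD alcohol mice against WT controls was lost without WT control mouse 26 or 3xTg-AD alcohol mice 33 or 34 (-1.19 to -0.78, adjusted p from 0.0537 to 0.461) and with DESeq2 (-1.18, adjusted p = 0.0765).

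Pamr1 and Xirp2, which were among the leading genes against superficial neurons, were lower in 3xTg-AD alcohol mice. Pamr1, a secreted protein with a protease-like domain, was at 123, 89.8, 36.3 and 128 CPM in WT controls and 29.2, 28.6, 36.4 and 32.8 in 3xTg-AD alcohol mice, where WT control mouse 28 lay at the level of the latter. It fell (-1.69 ± 0.30, adjusted p = 0.000755). Xirp2, an actin-binding protein best known from muscle, was at 127, 119.7, 254 and 79.3 CPM in WT controls, 98.4, 105, 58.5 and 66.2 in WT alcohol mice, 139, 91.7, 84.1 and 71.5 in 3xTg-AD controls and 75.1, 35.7, 46.1 and 23.4 in 3xTg-AD alcohol mice. It fell against WT controls (-1.50 ± 0.30, adjusted p = 0.00571), and those 2 groups did not overlap. Both calls were kept over the 1047 nuclei (-1.56 and -1.31). Pamr1 was lost without the 3 mice with much Gm42418 (-1.59, adjusted p = 0.053).

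Of the adhesion, trafficking and signaling genes that fell in 3xTg-AD alcohol mice against WT controls, Cntnap5a, a neurexin-like adhesion protein, changed by -1.02 ± 0.21 (adjusted p = 0.00804) with groups that overlapped. Rab3gap2, a subunit of the GTPase-activating complex of Rab3, changed by -1.13 ± 0.25 (adjusted p = 0.0132), and Hipk2, a nuclear kinase, by -0.96 ± 0.22 (adjusted p = 0.0153). Hipk2 was at 208, 197, 206 and 212 CPM in WT controls and 91.7, 89.3, 114 and 126 in 3xTg-AD alcohol mice. Slc38a6, of the amino acid transporter family, changed by -2.05 ± 0.45 (adjusted p = 0.0117), Focad, focadhesin, by -1.58 ± 0.33 (adjusted p = 0.0102) and the secreted protein gene Sbspon by -2.10 ± 0.47 (adjusted p = 0.0135), whose groups overlapped. The call of Cntnap5a was lost without WT control mouse 26 or 3xTg-AD alcohol mouse 33 (-0.95 to -0.91, adjusted p from 0.0617 to 0.0951). The call of Rab3gap2 was lost without WT control mouse 27 or 3xTg-AD alcohol mice 33 or 34 (-1.06 to -0.95, adjusted p from 0.0537 to 0.109) and over the 1047 nuclei (-0.94, adjusted p = 0.0668). The call of Hipk2 was lost without WT control mouse 26 or 3xTg-AD alcohol mice 4 or 33 (-1.01 to -0.91, adjusted p from 0.0514 to 0.0818). The call of Slc38a6 was lost without WT control mouse 27 (-1.85, adjusted p = 0.0795). The call of Focad was lost without WT control mouse 26 or 3xTg-AD alcohol mouse 33 (-1.43 to -1.36, adjusted p from 0.0915 to 0.119). The call of Sbspon was lost without WT control mouse 26 or 3xTg-AD alcohol mouse 33 (-2.18 to -1.74, adjusted p from 0.0606 to 0.264).

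Sash1, Ifi27 and Dbi rose and were higher in nuclei with astrocyte markers. Sash1, a signaling scaffold, was at 20.8, 12.8, 12.1 and 17.6 CPM in WT controls and 70.9, 39.3, 58.2 and 74.9 in 3xTg-AD alcohol mice and rose by 1.76 ± 0.39 (adjusted p = 0.0132). Its pooled level was 134.3 CPM in nuclei with astrocyte markers and 10.8 in the 1047 without other markers, where it had too few counts for a test. Ifi27, an interferon-induced gene, rose by 1.58 ± 0.40 (adjusted p = 0.0328) and likewise could not be tested in the 1047 nuclei (101 and 17.2 CPM pooled). Dbi, which encodes an acyl-CoA-binding protein that also acts at GABA-A receptors, rose by 1.18 ± 0.28 (adjusted p = 0.0243), at 267 and 56.8 CPM pooled in nuclei with astrocyte markers and in the 1047 nuclei. Apoe, which was not called, was at 1307 ± 847 CPM in WT controls and 2365 ± 1277 in 3xTg-AD alcohol mice (mean ± SD, n = 4), a change of 0.84 ± 0.61 (adjusted p = 0.641) that was 0.06 over the 1047 nuclei. The call of Sash1 was lost without WT control mouse 27 or 3xTg-AD alcohol mouse 34 (1.65 to 1.67, adjusted p from 0.0526 to 0.0591). The call of Ifi27 was lost without WT control mice 26 or 27 or 3xTg-AD alcohol mice 31, 33 or 34 (1.42 to 1.68, adjusted p from 0.0741 to 0.189) and without the deepest nuclei (1.45, adjusted p = 0.103). The call of Dbi was lost without WT control mice 26, 27 or 28 or 3xTg-AD alcohol mice 4 or 33 (0.99 to 1.24, adjusted p from 0.0505 to 0.151) and over the 1047 nuclei (1.01, adjusted p = 0.16).

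The remaining named genes that rose in that contrast were Nudcd3, a co-chaperone of the dynein complex (0.99 ± 0.21, adjusted p = 0.011), and Lztfl1, a regulator of ciliary trafficking (0.96 ± 0.23, adjusted p = 0.0243, groups that overlapped). Nudcd3 was at 155, 103, 145 and 83.7 CPM in WT controls and 275, 236, 257 and 201 in 3xTg-AD alcohol mice. The call of Nudcd3 was lost without WT control mouse 27 (0.92, adjusted p = 0.0624). The call of Lztfl1 was lost without WT control mice 26, 27 or 36 or 3xTg-AD alcohol mice 31 or 34 (0.79 to 0.98, adjusted p from 0.0537 to 0.216).

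**Figure D4:**
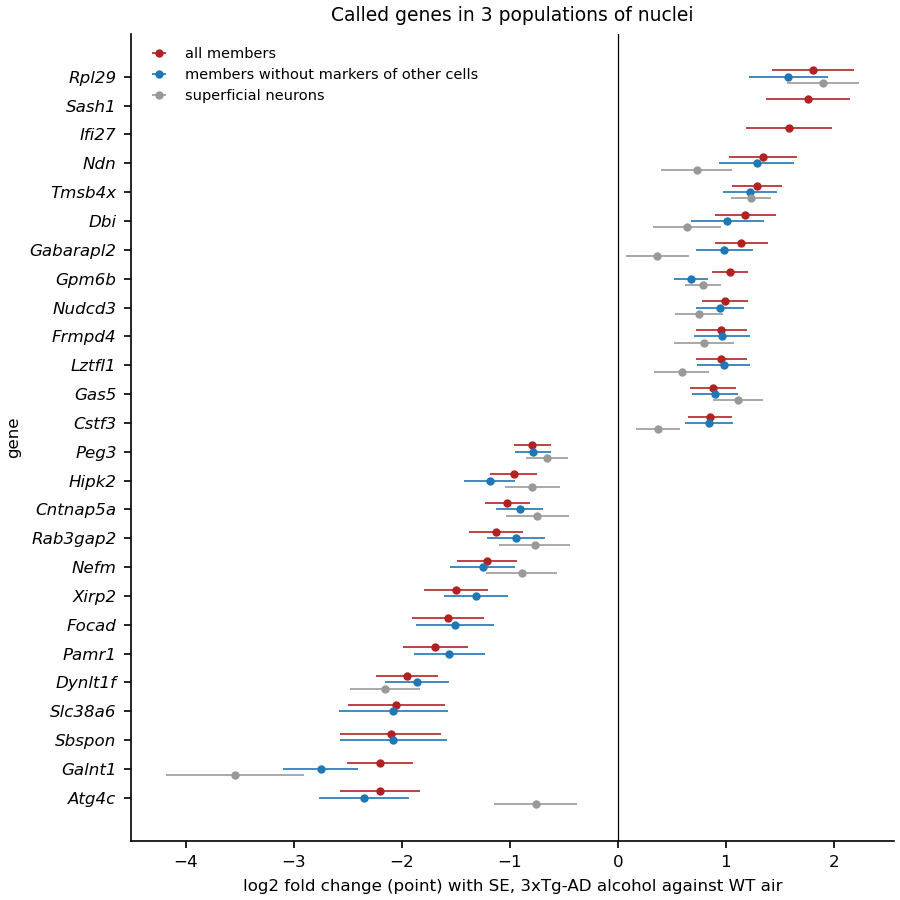
Log2 fold changes with SE (horizontal axis) of the named called genes in 3xTg-AD alcohol mice against WT controls (the WT air group of the axis label), over all Rorb/Il1rapl2 nuclei, over those without markers of other cells and over superficial neurons. A missing point means too few counts for a test; Gpm6b moves from 1.04 to 0.68 when nuclei with other markers are left out, and Atg4c is at -2.21 in these nuclei and -0.76 in superficial neurons.

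Between the alcohol groups, 5 named genes were called that were not called elsewhere. Timp4, an inhibitor of matrix metalloproteinases, was at 767, 485, 271 and 512 CPM in WT alcohol mice and 217, 193, 121 and 145 in 3xTg-AD alcohol mice, and at 273, 184, 351 and 198 and 414, 301, 252 and 588 in the WT and 3xTg-AD controls. It was lower in 3xTg-AD alcohol mice (-1.55 ± 0.30, adjusted p = 0.0198). Lynx1, a brake on nicotinic acetylcholine receptors, fell (-1.25 ± 0.28, adjusted p = 0.0198), as did the chemokine gene Ccl27a (-1.66 ± 0.31, adjusted p = 0.00367), whose groups overlapped and whose counts near-identical copies make uncertain. Sap130, a subunit of the Sin3 corepressor complex, rose (1.64 ± 0.36, adjusted p = 0.0198), as did Oser1 (1.62 ± 0.38, adjusted p = 0.0479), on 0 to 144 CPM over all mice for both. The call of Timp4 was lost without WT alcohol mice 7 or 18 or 3xTg-AD control mouse 12 or 3xTg-AD alcohol mice 31, 33 or 34 (-1.63 to -1.40, adjusted p from 0.0819 to 0.116). The call of Lynx1 was lost without WT alcohol mouse 17 or 3xTg-AD alcohol mice 4, 31, 33 or 34 (-1.38 to -0.79, adjusted p from 0.0512 to 0.886) and with DESeq2 (-1.20, adjusted p = 0.159). The call of Ccl27a was lost without WT alcohol mice 17 or 18 (-1.56 to -1.41, adjusted p from 0.0525 to 0.0801). The call of Sap130 was lost without WT alcohol mice 6 or 17 or 3xTg-AD alcohol mice 31 or 34 (1.36 to 1.89, adjusted p from 0.0507 to 0.185). The call of Oser1 was lost without WT control mouse 28 or WT alcohol mice 7, 17 or 18 or 3xTg-AD control mice 14 or 21 or 3xTg-AD alcohol mice 4, 31, 33 or 34 (1.21 to 1.69, adjusted p from 0.0649 to 0.819), with DESeq2 (1.58, adjusted p = 0.0694) and without the deepest nuclei (1.51, adjusted p = 0.0554).

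The contrast of alcohol within 3xTg-AD mice held 1 called gene. B3gat2, a glucuronyltransferase of the HNK-1 carbohydrate, was at 159.9, 301, 151 and 215 CPM in 3xTg-AD controls and 113, 64.3, 70.3 and 84.3 in 3xTg-AD alcohol mice, and at 134, 179.6, 157 and 132 and 177, 211, 106 and 124 in WT controls and WT alcohol mice. All 3xTg-AD alcohol mice lay below all 3xTg-AD controls. It fell (-1.22 ± 0.25, adjusted p = 0.0457). The call of B3gat2 was lost without WT alcohol mouse 18 or 3xTg-AD control mice 13 or 21 or 3xTg-AD alcohol mice 31, 33 or 34 (-1.24 to -1.06, adjusted p from 0.053 to 0.306), with DESeq2 (-1.25, adjusted p = 0.132), over the 1047 nuclei (-1.14, adjusted p = 0.144) and without the deepest nuclei (-1.17, adjusted p = 0.059).

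Superficial neurons of the same mice had several of these genes called too. Gpm6b was at 0.79 there in 3xTg-AD alcohol mice against WT controls (adjusted p = 0.0118), Tmsb4x at 1.23 (5.08e-05), Rpl29 at 1.90 (0.00135), Galnt1 at -3.55 (0.0215) and Dynlt1f at -2.16 (5.44e-05). Gabarapl2 (0.37, 0.751) and Atg4c (-0.76, 0.558) were not called in them. Whether a change differed between both populations was tested with limma on the difference per mouse, for the 2122 genes with enough counts in both. No gene was called (0.0%), and 87 genes (4.1%) had an unadjusted p under 0.05. The change in Rorb/Il1rapl2 nuclei less that in superficial neurons was 0.92 ± 0.39 for Galnt1 (SE, unadjusted p = 0.0218 by limma, adjusted p = 0.997) and 0.77 ± 0.36 for Gabarapl2 (unadjusted p = 0.0408 by limma, adjusted p = 0.997), so the changes are not shown to be particular to the Rorb/Il1rapl2 nuclei. Atg4c had too few counts for this test.

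Of 459 tested genes in 22 lists of neuronal and cellular functions, 5 were called in 3xTg-AD alcohol mice against WT controls (1.09%, beside 0.717% of all genes tested), namely Tmsb4x, Rpl29 and Ifi27 higher and Nefm and Cntnap5a lower, and 18 lists had none. All genes tested had a median log2 fold change of 0.00. No gene was called among the ionotropic glutamate receptor subunits (13 tested, median 0.14, and 0.07 over the 1047 nuclei), where Gria2 was at -0.09 and Grin2b at 0.23, nor among the metabotropic ones (6 tested, median -0.31, and -0.29 over the 1047), where Grm5 was at -0.43. Among 11 genes of GABA-A receptors and gephyrin (median -0.13, and -0.05 over the 1047) Gabrb1 was at 0.64 (adjusted p = 0.134).

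The ion channel lists had medians below 0 and no called gene. Of 28 potassium channel genes, 5 were above 0, with a median of -0.20 (-0.15 over the 1047 nuclei) and with Kcnma1 at -0.29. Of 9 sodium and HCN channel genes, 1 was above 0 (median -0.17, and -0.08 over the 1047 nuclei), with Scn2a at -0.19 and Scn8a at -0.26. Of 16 voltage-gated calcium channel genes, 4 were above 0 (median -0.19, and -0.07 over the 1047 nuclei), and of 29 genes of vesicle release 8 (median -0.16, and -0.12 over the 1047 nuclei), with Syt1 at 0.11 and Snap25 at -0.15. The postsynaptic scaffolds stood at 0.05, with 12 of 19 above 0. Calcium store and CaM kinase genes had a median of -0.12 (-0.10 over the 1047 nuclei), neurexins, neuroligins and contactins -0.20 (-0.06) and axon guidance genes -0.14 (-0.16). Cadherins and protocadherins had a median of -0.13 (-0.17), with Cdh10 at 0.37 and Pcdh10 at -0.15, and with 0 genes called over all nuclei and 1 lower over the 1047. It was Pcdh7, a protocadherin named after its values were seen, which was at -0.72 over all nuclei (adjusted p = 0.106).

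Genes of protein synthesis and energy supply had medians above 0. Of 79 cytosolic ribosomal protein genes, 75 were above 0, with a median of 0.27 that was 0.16 over the 1047 nuclei, and 1, Rpl29, was called. Of 73 nuclear-encoded respiratory chain genes 59 were above 0 (median 0.23, and 0.09 over the 1047 nuclei), with Cox8a at 0.38. Of 12 mitochondrially encoded genes 10 were above 0 (median 0.23), and over the 1047 nuclei their median was -0.01. Beside these medians, the share of nuclei with astrocyte markers was 16.8% in WT controls and 31.7% in 3xTg-AD alcohol mice, and its part in them was not tested. Of 24 tubulin, thymosin and actin genes 16 were above 0 (median 0.32, and 0.21 over the 1047 nuclei).

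Activity-dependent genes had values below 0 in WT alcohol mice against WT controls, and none passed the test. All 9 tested genes were below 0, with a median of -0.63 (-0.64 over the 1047 nuclei) beside -0.01 for all genes, and the smallest adjusted p was 0.484. Against the same controls the median was -0.33 in 3xTg-AD alcohol mice (-0.24 over the 1047 nuclei), which is the value of Homer1 itself, and 0.11 in 3xTg-AD controls, with 6 of 9 genes above 0. Without the 3 mice with much Gm42418, Homer1 was at 0.12 in 3xTg-AD alcohol mice. Egr1, an immediate early transcription factor, was at 181, 197, 218 and 61.7 CPM in WT controls and 138, 84.3, 63.3 and 57.4 in WT alcohol mice, and Homer1 at 364, 483, 303 and 238 and 209.9, 253, 222 and 199. The groups overlapped for both genes.

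App and Mapt, the mouse counterparts of the transgenes, and Thy1, which drives them, were not called in any of the 5 contrasts. App was at 490.0 ± 77.5 CPM in WT controls, 563 ± 147 in WT alcohol mice, 473 ± 37 in 3xTg-AD controls and 460.0 ± 78 in 3xTg-AD alcohol mice (mean ± SD, n = 4), with log2 fold changes between -0.27 and 0.19. Mapt, at 275 ± 11, 294 ± 41.1, 283 ± 53.8 and 315 ± 55.1 CPM in the same order, had log2 fold changes of 0.04 to 0.18, and Thy1, at 212 ± 27.4, 204 ± 52.8, 254 ± 97.2 and 237 ± 41.1 CPM, of 0.02 to 0.19. Of 17 tested genes at Alzheimer's disease loci 7 were above 0 in 3xTg-AD alcohol mice against WT controls (median -0.04, and -0.11 over the 1047 nuclei), with Mef2c at 0.25 and none called. Interferon-stimulated genes were hardly measurable in these nuclei: 2 of 36 had enough counts, and Ifi27 was 1 of them. Among 17 chaperone genes the median was 0.01 (-0.06 over the 1047 nuclei), with Hsp90ab1 at 0.02. Of 7 transcripts associated with ribosomal RNA or nuclear retention, 1 was above 0 (median -0.34, and -0.24 over the 1047 nuclei), with Malat1 at 0.12 and Meg3 at -0.29. The lowest value in this list was -2.40, and 5 of the 7 had an unadjusted p under 0.05 by edgeR. Beside this, the ribosomal RNA-like Gm42418 took 1.54% and 0.953% of the UMIs in WT control mice 26 and 27. It took 0.123% to 0.176% in 3xTg-AD alcohol mice, and whether this bears on the values of the list was not tested. None of the 7 was called over all nuclei (smallest adjusted p = 0.0667), and 1 was called lower over the 1047.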

How the data were processed

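Nuclei of medial PFC from 16 mice were sequenced with the 10x Genomics 3′ kit, 1 library per mouse. The deposited counts are whole UMIs per gene and nucleus (19999 genes, 114512 nuclei, 216742276 UMIs) that the authors made with Cell Ranger 6.1.1 and STAR on mm10 and filtered in Seurat. The quality limits, the annotation release and the treatment of doublets are not given in the sources used here. No doublet caller was run. Filtering and free RNA can change which nuclei pass a rule on few UMIs.

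UMIs of the chosen nuclei were summed per mouse (50140 to 723817) and compared over 6138 genes by the robust quasi-likelihood F test of edgeR 4.0.16 (R 4.3.3), with TMM factors, the default expression filter and 4 group means, with Benjamini-Hochberg adjustment and a threshold of 0.05. limma 3.58.1 (with statmod 1.5.0) compared the change in log2 CPM (prior count of 2) with that in superficial neurons for 2122 genes of at least 20 UMIs per mouse on average. Mice were separate animals, and the labels give no batch. Shares were compared by exact permutation tests with Python 3.11.15, numpy 2.4.6, scipy 1.17.1 and pandas 2.3.3, and figures were drawn with matplotlib 3.10.9. The upper limit given for a count of 0 covers counting error only.

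Named genes had a mean of at least 20 CPM, were not of the Gm or Rik kind, and were the 12 higher and 12 lower genes with the smallest p in the first contrast, the 5 and 5 in the others, the members of 22 gene lists that were called or, where none was, the 2 highest, and App, Mapt and Thy1. A few genes that the rule names are not reported here. The members and lists were chosen with earlier results of these data known. Gene positions came from GENCODE vM21 (19674 of 19999 symbols matched). Alternatives were no filter on low counts, RLE normalization, DESeq2 1.42.0, each mouse left out, the 3 mice with much Gm42418 left out, a stricter rule of 5 UMIs, the deepest 5% of nuclei left out and nuclei with markers of other cells left out. Other limits on astrocyte markers, and the comparison with superficial neurons over nuclei without such markers, were chosen after seeing the data.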

Additional observations from a re-analysis of the deposited data

Results flagged for a closer look

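In 17 of 280 groups of 4 mice, over 68 named genes and the 2 shares of nuclei, 1 mouse lay far from the other 3 relative to the range of its group. Chance gives such a mouse in about 1 in 20 groups. No explanation was tested.

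Among the called genes, Sash1 was at 57.5 CPM in 3xTg-AD control mouse 14, Galnt1 at 171 in WT alcohol mouse 6, and Dynlt1f at 28.5 in WT alcohol mouse 17 and at 118 in 3xTg-AD control mouse 13. Pamr1 was at 57.5 CPM in 3xTg-AD control mouse 14, Cntnap5a at 157 in 3xTg-AD alcohol mouse 31, Focad at 86.9 in 3xTg-AD control mouse 12 and Lynx1 at 171 in WT alcohol mouse 17. Without 3xTg-AD alcohol mouse 31 the change of Cntnap5a against WT controls was -1.23 (edgeR, adjusted p = 0.00163).

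Among the genes that were not called, the metabotropic glutamate receptor genes Grm5 and Grm7 were at 758 CPM in WT alcohol mouse 7 and 159 in WT alcohol mouse 18. The sodium channel gene Scn8a was at 484 CPM in WT control mouse 28, the calcium channel subunit gene Cacna2d1 at 292 in 3xTg-AD control mouse 14 and Snap25, of the release machinery, at 1272 in 3xTg-AD alcohol mouse 31. The cadherin gene Cdh10 was at 432 CPM in WT alcohol mouse 17, the mitochondrial mt-Atp6 at 791 in WT control mouse 27, the noncoding Meg3 at 21795 in WT alcohol mouse 6 and Thy1 at 171 in WT control mouse 26.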

How the results depend on the processing

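The number of genes called in 3xTg-AD alcohol mice against WT controls, 44, was 81 with no filter on low counts, 15 without the 3 mice with much Gm42418 and 2 with at least 5 UMIs of Rorb and Il1rapl2, and 15 to 73 with single mice left out. By DESeq2 it was 34, of which 26 were among the 44. In 3xTg-AD controls against WT controls, 2, it was 5 with no filter, 1 without the 3 mice and 1 with at least 5 UMIs. There it was 4 by DESeq2, 1 over nuclei without markers of other cells and 1 to 4 with single mice left out. In WT alcohol mice against WT controls, 2, it was 4 with no filter, 0 by DESeq2 (390 genes at an unadjusted p under 0.05), 0 without the 3 mice and 0 to 3 with single mice left out. Within 3xTg-AD mice, 1, it was 4 with no filter, 3 without the 3 mice and 0 by DESeq2 (418 unadjusted), with at least 5 UMIs, without the deepest nuclei and over nuclei without markers of other cells, and 0 to 3 with single mice left out. Against WT alcohol mice, 14, it was 32 with no filter, 22 without the 3 mice, 0 with at least 5 UMIs and 5 to 14 with single mice left out. By DESeq2 it was 11, of which 9 were among the 14. For the interaction, 0, it was 2 with no filter, 1 without the deepest nuclei and 0 to 1 with single mice left out. The cause was not tested, beyond the fewer mice or nuclei of some settings. RLE normalization turned no direction and ended no call of a named gene. Of 41 named calls, 4 were kept in every alternative that gave a value, and 10 with each single mouse left out. The share of nuclei differed by -0.50 to 0.20 percentage points with single mice left out in 3xTg-AD alcohol mice against WT controls, by -0.86 to 0.017 in WT alcohol mice against WT controls and by -0.071 to 0.67 between the alcohol groups, where it was -0.042 with at least 5 UMIs. It differed by -0.75 (without WT control mouse 28) to -0.046 (without WT control mouse 26) in 3xTg-AD controls against WT controls and by 0.058 (without 3xTg-AD control mouse 13) to 0.50 (without 3xTg-AD control mouse 12) between the 3xTg-AD groups. The share with at least 4 UMIs of astrocyte markers differed by -0.099 percentage points in 3xTg-AD controls against WT controls. Changes of uncalled genes turned direction without the 3 mice with much Gm42418, to log2 values of Gria2 0.00394, Grm7 0.14, Kcnh7 0.23, Pcdh10 0.10, Homer1 0.12 and Hsp90ab1 -0.0317 (3xTg-AD alcohol against WT control), Thy1 -0.0373 (WT alcohol against WT control) and Thy1 -0.13 (3xTg-AD alcohol against 3xTg-AD control). Changes of uncalled genes turned direction without nuclei with markers of other cells, to log2 values of Kcnh7 0.0514 and Hsp90ab1 -0.0636 (3xTg-AD alcohol against WT control), Mapt -0.00539 (WT alcohol against WT control) and Mapt -0.0298 (3xTg-AD alcohol against 3xTg-AD control). Changes of uncalled genes turned direction without the deepest nuclei, to log2 values of Hsp90ab1 -0.0109 (3xTg-AD alcohol against WT control) and App 0.0311 (3xTg-AD alcohol against 3xTg-AD control). Changes of uncalled genes turned direction with at least 5 UMIs, to log2 values of Cdh10 -0.27, Hsp90aa1 0.27, Mef2c -0.0124, App 0.0963, Malat1 -0.15 and Thy1 -0.16 (3xTg-AD alcohol against WT control), Thy1 -0.41 (3xTg-AD control against WT control), App 0.19 and Mapt -0.12 (3xTg-AD alcohol against 3xTg-AD control) and Mapt -0.12 and Thy1 -0.45 (3xTg-AD alcohol against WT alcohol). With single mice left out, the changes of uncalled genes that turned direction ranged as Kcnh7 -0.18 to 0.0419, Camk2n1 -0.096 to 0.13, Dlgap1 -0.0201 to 0.17, Hsp90ab1 -0.065 to 0.11, App -0.16 to 0.0262 and Malat1 -0.0208 to 0.35 (3xTg-AD alcohol against WT control), App -0.11 to 0.0408, Mapt -0.019 to 0.15 and Thy1 -0.0293 to 0.34 (3xTg-AD control against WT control), App -0.0114 to 0.30, Mapt -0.00577 to 0.13 and Thy1 -0.0499 to 0.14 (WT alcohol against WT control), App -0.14 to 0.0467, Mapt -5.92e-05 to 0.20 and Thy1 -0.14 to 0.22 (3xTg-AD alcohol against 3xTg-AD control). The groups could not be paired, since each mouse belonged to 1 group, and only the limma comparison with superficial neurons was made within mice. The depth per mouse (50140 UMIs in WT alcohol mouse 7) limits what could be seen of genes with few counts.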
